A study of Homo sapiens with 8 samples.

Results

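The oxidative phosphorylation genes are those for the subunits of the 5 protein complexes of the inner mitochondrial membrane: the 4 respiratory complexes and ATP synthase, complex V. They were chosen by the start of the gene symbol in the count table. For the nuclear genome, symbols starting with NDUFA, NDUFB, NDUFC, NDUFS or NDUFV, SDHA to SDHD, UQCR, COX4 to COX8 or ATP5 were taken, and for the mitochondrial genome (mtDNA) those starting with MT-ND, MT-CO, MT-CYB or MT-ATP. Of 38173 genes in the table, 98 met the rule, 85 in the nuclear genome and 13 in mtDNA. Names of 63 pseudogenes, 9 assembly factors, 3 antisense transcripts and 1 read-through transcript were left out. Complex I held 37 nuclear and 7 mtDNA genes, complex II 4 nuclear genes, complex III 9 nuclear and 1 mtDNA gene, complex IV 17 and 3, and complex V 18 and 2. The literal rule also kept genes that are not plain subunits, such as COX7A2L, which helps join complexes into supercomplexes, ATP5S and ATP5SL, and UQCRHL, a near copy of UQCRH.

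Oxidative phosphorylation is the process by which mitochondria pass electrons from NADH and succinate to oxygen, pump protons, and use the proton gradient to make ATP. Its complexes, apart from complex II, join proteins made in the cytosol from nuclear genes with proteins made inside the mitochondrion from mtDNA, so the 2 genomes have to supply parts of the same machine. Transcription of mtDNA runs as long polycistronic transcripts that are cut into single RNAs, and their levels depend on transcription, on processing and on decay. Nuclear genes are transcribed one by one, under factors such as NRF1, the ETS factor GABP and YY1. In inflamed synovium, fibroblast-like synoviocytes are known for a shift towards glycolysis.

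The poly(A) RNA libraries were made from MH7A, a line of synovial cells from a person with rheumatoid arthritis that was immortalised, in 4 groups of 2. Mock cells, whose label names DMSO while the design text describes normal incubation, were compared with cells given tumour necrosis factor (TNF) for 24 h. A further group had TNF and 60 µM Tub B (tubuloside B) together for 24 h, and the last had 60 µM Tub B alone for 24 h. The study's design text has TNF at 20 ng/mL, but the treatment labels state it per microlitre or stop short of the unit. All 4 groups share the one cell line, and nothing in the labels says that the 2 libraries of a group are separate cultures. The p-values thus reflect only how far these libraries differ, which may be technical. In bulk RNA, fewer cells of a type and less RNA per cell cannot be told apart.

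Library totals ran from 14073186 to 31937334 counts. All 10 synovial fibroblast markers checked were detected, from PDPN at 4.16 to 11.2 CPM to COL1A2 at 7558 to 12413 CPM. CPM are read counts scaled to the library total times the trimmed-mean factor given below. The 18 markers of macrophages, T cells, B cells, endothelium, epithelium and skeletal muscle reached at most 2.23 CPM, for CD14, and CD3D, CD3E, CD2, MS4A1, PECAM1, CDH5, CDH1, KRT5 and MYOG were at 0 in at least 1 library. As a check of the treatments, the TNF-induced chemokine CXCL8 stood at 17.2 and 13.9 CPM in Mock against 758 and 739 CPM in TNF, and the NRF2 target NQO1 at 88.9 and 93.4 CPM in Mock against 437 and 483 CPM in Tub B. Libraries were scaled by trimmed means (TMM), with factors of 0.942 and 0.949 in TNF and 0.984 to 1.041 in the other groups. Scaling by library totals alone would move the median log2 fold change of all genes by -0.07 for TNF against Mock and by 0.12 for TNF + Tub B against TNF, so changes are given relative to TMM. The split of all called genes moved with it, from 1184 higher and 2183 lower to 3431 and 1325 for TNF + Tub B against TNF. For TNF against Mock it moved from 2857 higher and 2220 lower to 2147 and 3474, and for Tub B against Mock from 804 and 1316 to 1530 and 867.

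Promoter letters are shown first because they are a feature that the choice of genes did not use. RefSeq promoters on GRCh38.p14, from 250 bases before to 50 after a start site, were at hand for 68 of the 85 nuclear genes and for 15843 genes in all. The YY1 motif, spelled in capitals in the windows printed next, stood on either strand in 8 of the 68 (11.8%), against 2.22% of all genes. The ETS motif CCGGAAG, the letters GABP binds, stood in 20 (29.4%) against 16.5%. The palindromic NRF1 motif was in 4 (5.88%) against 1.99%, the cyclic AMP response element TGACGTCA in 5 (7.35%) against 3%, and the antioxidant response element TGACNNNGC in 12 (17.6%) against 17.9%. These are matches of letters, not sites shown to be bound, and overlaps between motifs were not counted.

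The 8 windows with the YY1 letters are printed 5′ to 3′ on the gene's strand, with the motif in capitals, because in 7 of them it falls just inside the transcript rather than upstream. The letters ATG within the motif can serve as a start codon.
ATP5J: aggcgaagaaAAGATGGCGGaggctgtgcc
NDUFA6: atgctttggcAAGATGGCGGggagcggcgt
NDUFA9: attgtgggaaAAGATGGCGGctgccgcaca
NDUFB8: gaagaaggtgAAGATGGCGGtggccagggc
NDUFS4: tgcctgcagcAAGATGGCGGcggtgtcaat
NDUFS7: ggccgaggccAAGATGGCGGtgctgtcagg
SDHB: gtcaggagccAAGATGGCGGcggtggtcgc
UQCRC1: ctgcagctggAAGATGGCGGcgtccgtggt
The first motif base lay 57 bases upstream of the start in ATP5J (chr21:25735092-25735121, minus strand). It lay at base 11 of the transcript in NDUFA9 (chr12:4649114-4649143, plus strand) and SDHB (chr1:17054003-17054032, minus strand), and at base 18 in NDUFB8 (chr10:100529835-100529864, minus strand) and NDUFS7 (chr19:1383914-1383943, plus strand). It lay at base 22 in NDUFS4 (chr5:53560650-53560679, plus strand), at base 24 in UQCRC1 (chr3:48609604-48609633, minus strand) and at base 26 in NDUFA6 (chr22:42090728-42090757, minus strand). The 8 genes cover complexes I, II, III and V.

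The upstream window of NDUFS1, the largest subunit of complex I, is shown because it was the 1 nuclear gene that passed the test in 2 comparisons. Its 250 bases on the minus strand of chr2:206159445-206159694 hold the ETS letters once, on the other strand as CTTCCGG in capitals, at 157 to 151 bases before the start.
NDUFS1: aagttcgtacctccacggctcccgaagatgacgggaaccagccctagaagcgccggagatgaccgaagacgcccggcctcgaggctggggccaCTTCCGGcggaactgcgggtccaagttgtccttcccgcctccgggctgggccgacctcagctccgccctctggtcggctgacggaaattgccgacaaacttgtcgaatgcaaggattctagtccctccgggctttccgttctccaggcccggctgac
Of the 9 nuclear genes called in any comparison, 7 had a promoter at hand. The antioxidant response element stood in 3 of them, NDUFS1, NDUFA9 and NDUFA5, against 17.9% of all genes. In NDUFS1 it lay outside the window printed above, in the 50 bases after a start or at a further start site. The ETS letters stood in 2 and the YY1 letters in 1, against 16.5% and 2.22% of all genes. The NRF1 and cyclic AMP letters stood in 0, against 1.99% and 3%. These shares were not compared by a test.

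All 13 mtDNA genes and 81 of the 85 nuclear genes had enough reads to be tested. The 4 untested genes had few counts in all 8 libraries together: ATP5L2 had 22, COX6B2 had 19, COX8C had 8 and COX4I2 had 6. The nuclear genes varied little between libraries. The ratio of the highest to the lowest of the 8 libraries had a median of 1.22 over the 81 genes, and it was below 1.5 in 77. The other 4, NDUFA13, NDUFB8, NDUFV2 and NDUFA4L2, lay at 0.774 to 2.72 CPM on average. The first 3 of those, like NDUFA7, share exon bases with another annotated gene or have near copies, so their counts are uncertain. The count ratio of the 13 mtDNA genes to the 85 nuclear genes was near 6 in every library.

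Reads of the 13 mtDNA genes made up 2.91% and 2.96% of counts in Mock, 2.53% and 2.53% in TNF, 2.86% and 2.95% in TNF + Tub B, and 2.93% and 3.06% with Tub B alone. The 85 nuclear genes made up 0.495% and 0.468%, 0.442% and 0.429%, 0.471% and 0.464%, and 0.487% and 0.497% in the same order. Both shares were lowest in the 2 TNF libraries, which overlapped with no other library. Cytosolic ribosomal protein genes were lowest in TNF too, with 3.0% and 2.86% in Mock, 2.54% and 2.43% in TNF, 2.81% and 2.75% in TNF + Tub B, and 2.98% and 3.02% with Tub B alone. The TMM factors were also lowest in TNF, and their part in these shares was not tested.

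The ratio of mtDNA to nuclear counts cancels any scaling of a library. It was 5.89 and 6.33 in Mock, 5.73 and 5.90 in TNF, 6.07 and 6.37 in TNF + Tub B, and 6.01 and 6.16 with Tub B alone. Group means were 6.11 ± 0.310, 5.82 ± 0.121, 6.22 ± 0.210 and 6.08 ± 0.106 (SD, n = 2 each). Mock and TNF overlapped, Mock and Tub B overlapped, and TNF lay below TNF + Tub B in both libraries. On the log2 scale TNF minus Mock was -0.07 and TNF + Tub B minus TNF was 0.10, against a pooled SD between libraries of 0.05. The difference for Tub B minus Mock was -0.0063, within that SD. Without the first TNF + Tub B library the value of 0.10 became 0.13, and without the second 0.06.

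**Figure D1:**
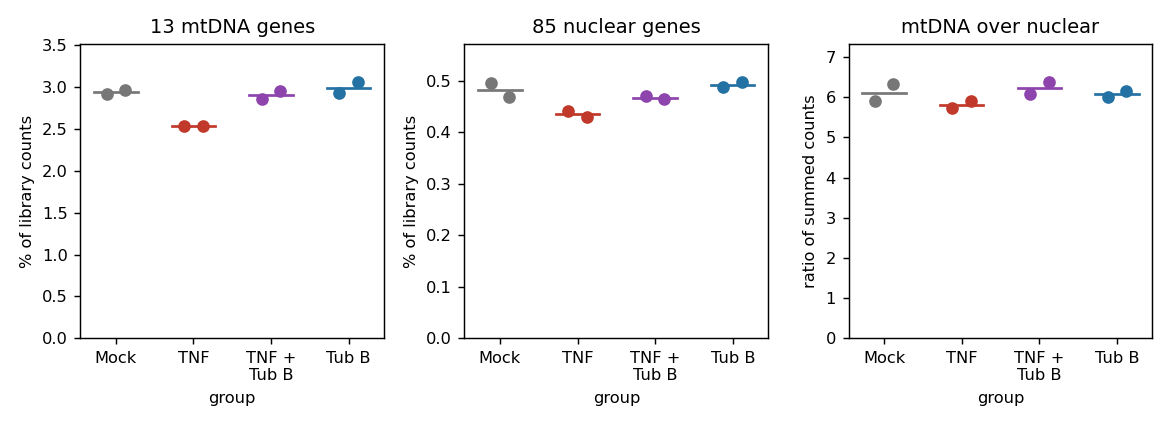
Share of all library counts held by the 13 mtDNA genes (left) and by the 85 nuclear genes (middle), in percent, and the ratio of their summed counts (right), by group. Each point is a library, and the line is the mean of 2. Both shares are lowest in TNF, at 2.53% and at 0.429% to 0.442%, while the ratio overlaps between Mock and TNF.

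Split by complex, the log2 ratio of mtDNA to nuclear counts was highest for complex IV and lowest for complex V. For complex V it was -0.516 and -0.508 in TNF against -0.272 and -0.315 in TNF + Tub B, with -0.487 and -0.430 in Mock and -0.441 and -0.330 in Tub B. The 2 groups with TNF did not overlap. For complex IV it was 4.08 and 4.21 in Mock against 3.96 and 4.01 in TNF, and these groups did not overlap either. TNF + Tub B had 4.06 and 4.15, and Tub B had 4.14 and 4.10. For complex III, Mock had 2.07 and 2.09, TNF 2.0 and 1.99, TNF + Tub B 2.03 and 2.11, and Tub B 1.94 and 2.06. Both Mock libraries thus lay above those of Tub B alone as well as above those of TNF. For complex I the 8 libraries lay between 3.0 and 3.11, with all groups overlapping.

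Scaled to gene length, the order of the mtDNA messages was stable. Mean levels over the 8 libraries, in CPM per kb, were 5562 ± 315 for MT-CO1, 4258 ± 252 for MT-CO2, 2673 ± 124 for MT-ND4 and 2492 ± 165 for MT-CO3 (SD, n = 8). MT-ND4L followed at 2156, MT-CYB at 1945, MT-ND5 at 1901 and MT-ATP6 at 1814. The lowest were MT-ND6 at 1502, MT-ND1 at 1421, MT-ND2 at 1184, MT-ND3 at 719 and MT-ATP8 at 583. In every library each gene stood above the next in this order, except MT-CYB and MT-ND5 (5 of 8 libraries) and MT-ND5 and MT-ATP6 (7 of 8). The libraries do not keep strand, so reads of MT-ND6, which lies on the other strand, cannot be told from antisense reads of the opposite transcript. MT-ATP8 shares 22.2% of its bases with MT-ATP6, and the sources used here do not say how reads in shared bases were counted. Rows named as nuclear pseudogene copies of mtDNA genes held reads equal to 0.814% to 0.979% of the mtDNA gene counts. No such row was named for MT-CO1, MT-CO2, MT-CO3 or MT-ND4L. Adding pseudogene counts therefore left the counts of those genes unchanged.

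TNF against Mock asked what the cytokine alone did to these genes. Of the 13 mtDNA genes, 6 fell and 0 rose in edgeR's quasi-likelihood test at a Benjamini-Hochberg adjusted p below 0.05, and all 13 fold changes were negative. Of the 81 nuclear genes, 6 fell and 0 rose. In this comparison 30.5% of all 16647 genes were called, 17.2% higher and 13.3% lower. The nuclear share of 7.41% was below that background, and the mtDNA share of 46.2% was above it. The mtDNA messages are cut from long transcripts that span many genes of a strand, so the 13 genes are not independent readings. Changes were small, with a median log2 fold change of -0.12 for mtDNA and -0.06 for nuclear genes, against -0.003 for all genes. The difference of the 2 medians, -0.06, was smaller than the pooled SD of 0.08 between libraries, and without the second Mock library it was 0.01.

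The mtDNA subunits of complex IV, the cytochrome c oxidase that passes electrons to oxygen, all fell. MT-CO3 stood at 2038 and 2049 CPM in Mock and at 1746 and 1770 CPM in TNF, and fell by 0.22 ± 0.04 (log2, SE; edgeR adjusted p = 0.000688). MT-CO2, which takes electrons from cytochrome c, stood at 3120 and 3169 CPM in Mock and at 2762 and 2701 CPM in TNF, and fell by 0.20 ± 0.04 (edgeR adjusted p = 0.000824). MT-CO1, which holds the oxygen-reducing centre, stood at 8457 and 9281 CPM in Mock and at 7884 and 8036 CPM in TNF, and fell by 0.16 ± 0.05 (edgeR adjusted p = 0.015). Both TNF libraries lay below both Mock libraries for all 3 genes. The second Mock library was the highest of all 8 for MT-CO1, and without it the change was -0.09 (edgeR adjusted p = 0.124). Its call was also lost without the first TNF library (edgeR adjusted p = 0.127) and without the second (edgeR adjusted p = 0.0562).

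MT-CYB, the mtDNA subunit of complex III, stood at 2367 and 2389 CPM in Mock and at 2120 and 2081 CPM in TNF, and fell by 0.18 ± 0.04 (edgeR adjusted p = 0.00332). MT-ND4, a proton-pumping subunit of complex I, stood at 3832 and 3832 CPM in Mock and at 3440 and 3485 CPM in TNF, and fell by 0.15 ± 0.04 (edgeR adjusted p = 0.0157). MT-ATP6, which forms part of the proton channel of ATP synthase, stood at 1248 and 1273 CPM in Mock and at 1168 and 1150 CPM in TNF, and fell by 0.12 ± 0.04 (edgeR adjusted p = 0.0306). The groups did not overlap for any of the 3. The calls of MT-CO2, MT-CO3 and MT-CYB held in all 8 fits that left out a library. That of MT-ND4 was lost without the first TNF library (edgeR adjusted p = 0.126) or the second (0.0672). That of MT-ATP6 was lost without the second Mock library (edgeR adjusted p = 0.0764) or without the first or second TNF library (0.117 and 0.179).

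The other 7 mtDNA genes did not pass. Their log2 fold changes were -0.18 for MT-ATP8, -0.10 for MT-ND2, -0.09 for MT-ND1 and MT-ND4L, -0.07 for MT-ND5, -0.05 for MT-ND3 and -0.04 for MT-ND6. So 1 of the 7 complex I genes of mtDNA was called, against all 3 of complex IV, although the difference between those complexes was not tested. The 95% interval of the change lay within 1.5-fold for all 13 genes. The rows of the 2 mitochondrial ribosomal RNAs and 13 transfer RNAs that could be tested had a median of 0.04, with 1 called, MT-TE at 1.10 ± 0.41 (edgeR adjusted p = 0.0498). MT-TE had only 132 counts in the 8 libraries together, and its call lay at the threshold.

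**Figure D2:**
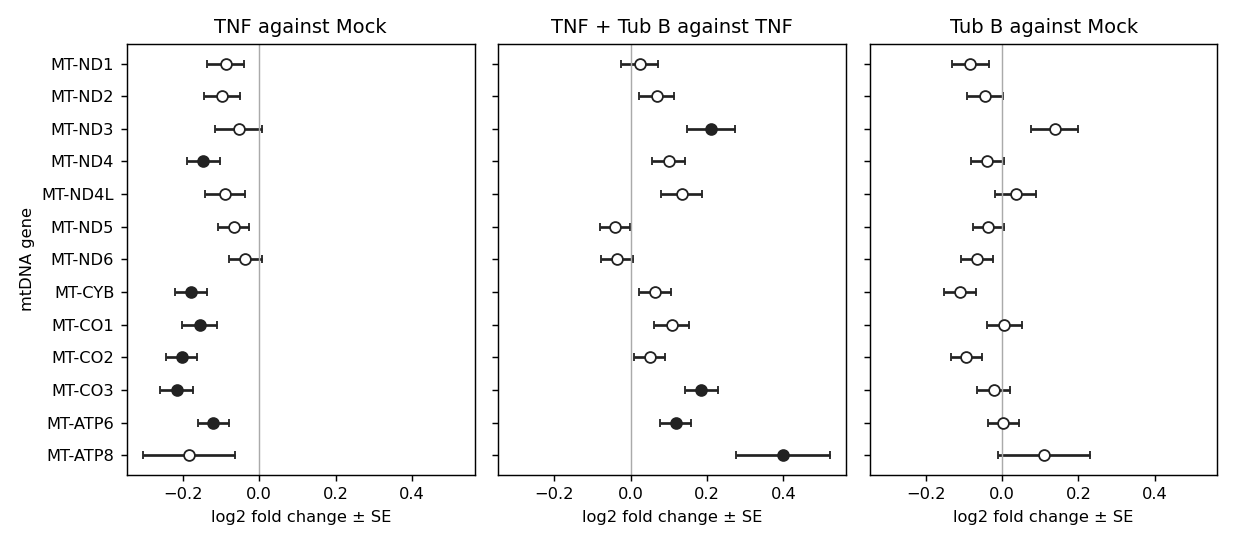
Log2 fold changes with standard errors of the 13 mtDNA genes in 3 comparisons, from the edgeR fit over all 8 libraries. Filled points passed an adjusted p of 0.05. With TNF all 13 points lie below 0 and 6 are filled, and with Tub B added to TNF 11 lie above 0 and 4 are filled. With library totals in place of TMM the other 2, MT-ND5 and MT-ND6, lie above 0 too, at 0.079 and 0.084.

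Of the 6 nuclear genes that fell with TNF, 5 encode complex I, which takes electrons from NADH. Complex I supplied 37 of the 81 tested nuclear genes, and its share of 13.5% was near the 13.3% of all genes called lower. NDUFB10, an accessory subunit of its membrane arm, stood at 76.9 and 73.9 CPM in Mock and at 66.6 and 63.7 CPM in TNF, and fell by 0.21 ± 0.05 (edgeR adjusted p = 0.00549). NDUFS3, a core subunit, stood at 34.3 and 32.5 CPM in Mock and at 30.1 and 27.4 CPM in TNF, and fell by 0.21 ± 0.08 (edgeR adjusted p = 0.0461). NDUFS5, an accessory subunit, stood at 67.7 and 64.5 CPM in Mock and at 61.5 and 56.5 CPM in TNF, and fell by 0.16 ± 0.06 (edgeR adjusted p = 0.0372). For each of the 3 both TNF libraries lay below both Mock libraries. Exons of NDUFS3 overlap those of PTPMT1 over 22.4% of their bases, so its counts can include reads of that gene. Exon bases shared with some other annotated gene made up 10.3% for ATP5F1, 11.7% for NDUFS1 and 12% for NDUFV1.

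NDUFS1, a core subunit that carries iron-sulfur clusters, stood at 134 and 125 CPM in Mock and at 118 and 116 CPM in TNF, and fell by 0.15 ± 0.05 (edgeR adjusted p = 0.0334). NDUFV1, which binds NADH, stood at 112 and 106 CPM in Mock and at 99.0 and 97.5 CPM in TNF, and fell by 0.15 ± 0.05 (edgeR adjusted p = 0.0305). It lay outside the rule for naming genes and was added after its values were seen. The sixth gene, ATP5F1 of complex V (now ATP5PB), part of the stalk that holds ATP synthase together, stood at 129 and 119 CPM in Mock and at 107 and 103 CPM in TNF, and fell by 0.24 ± 0.05 (edgeR adjusted p = 0.00212). Groups did not overlap for these 3 either. The call of ATP5F1 held in all 8 fits that left out a library and that of NDUFB10 in 7. It held in 5 for NDUFS1 and NDUFV1, in 4 for NDUFS5 and in 3 for NDUFS3. Without the first Mock library the edgeR adjusted p was 0.263 for NDUFS1, 0.22 for NDUFS5 and 0.219 for NDUFS3, and without the second TNF library it was 0.17, 0.309, 0.288 and, for NDUFB10, 0.0687.

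By complex, 5 of 37 nuclear genes of complex I (13.5%) and 1 of 17 of complex V (5.88%) fell with TNF. Of all genes 13.3% were called lower, and 0 of the 4, 9 and 14 tested in complexes II, III and IV were called. At an unadjusted p below 0.05 the last 3 counts were 0, 2 and 0. Median log2 fold changes were -0.08, -0.08, -0.09, -0.05 and -0.05 for complexes I to V. The interval lay within 1.5-fold for 75 of the 81 genes and within 2-fold for 80. With library totals in place of TMM, 28 nuclear and 10 mtDNA genes were called, all lower, and DESeq2 called 2 nuclear genes.

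TNF + Tub B against TNF asked what the compound did to stimulated cells. It uses the same TNF libraries as the comparison above, so a value that is low in TNF enters both. Of the 13 mtDNA genes 4 rose and 0 fell, and of the 81 nuclear genes 1 rose and 1 fell. Here 20.2% of all genes were called, 7.11% higher and 13.1% lower, against 30.8% of the mtDNA genes and 2.47% of the nuclear genes. Median log2 fold changes were 0.10 for mtDNA, with 11 of 13 positive, -0.01 for nuclear genes and -0.005 for all genes. The difference of the 2 medians was 0.11, against a pooled SD of 0.08, and it ranged from 0.03 to 0.13 when single libraries were left out. With library totals in place of TMM the nuclear split turned from 1 higher and 1 lower to 15 higher and 0 lower, and the nuclear median to 0.10, while 11 mtDNA genes were called, all higher.

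Both mtDNA genes of ATP synthase were among the 4. MT-ATP8, a short subunit of its membrane part, stood at 101 and 106 CPM in TNF and at 139 and 133 CPM in TNF + Tub B, and rose by 0.40 ± 0.12 (edgeR adjusted p = 0.0276). Its other groups were wide, with 128 and 105 CPM in Mock and 101 and 152 CPM in Tub B. MT-ATP6 stood at 1168 and 1150 CPM in TNF and at 1277 and 1240 CPM in TNF + Tub B, and rose by 0.12 ± 0.04 (edgeR adjusted p = 0.0477). The groups did not overlap for either gene. The call of MT-ATP6 held in 2 of 8 fits that left out a library and that of MT-ATP8 in 4. Without any 1 of the 4 libraries compared the edgeR adjusted p was 0.125 to 0.323 for MT-ATP6 and 0.0711 to 0.16 for MT-ATP8, and DESeq2 gave 0.0639 and 0.393.

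MT-CO3 stood at 1746 and 1770 CPM in TNF and at 1958 and 2041 CPM in TNF + Tub B, and rose by 0.19 ± 0.04 (edgeR adjusted p = 0.00435). MT-ND3, a small membrane subunit of complex I, stood at 231 and 228 CPM in TNF and at 266 and 265 CPM in TNF + Tub B, and rose by 0.21 ± 0.06 (edgeR adjusted p = 0.0215). Both TNF + Tub B libraries lay above both TNF libraries for each. The call of MT-CO3 was lost without the first TNF library (edgeR adjusted p = 0.0599) or the second TNF + Tub B library (0.0994). That of MT-ND3 was lost without any 1 of the 4 libraries compared (0.0928 to 0.123). The other 9 mtDNA genes did not pass, and their changes ran from -0.04 for MT-ND5 and MT-ND6 to 0.13 for MT-ND4L. With library totals MT-ND5 and MT-ND6 turned to 0.079 and 0.084, still not called.

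NDUFS1 stood at 118 and 116 CPM in TNF and at 131 and 134 CPM in TNF + Tub B, and rose by 0.18 ± 0.05 (edgeR adjusted p = 0.018). Together with Mock at 134 and 125 CPM and Tub B at 128 and 140 CPM, the 2 TNF libraries were the lowest of the 8. NDUFA9, an accessory subunit that stabilises the junction of the complex I arms, stood at 8.89 and 9.15 CPM in TNF and at 7.05 and 6.31 CPM in TNF + Tub B, and fell by 0.43 ± 0.13 (edgeR adjusted p = 0.0258). In Mock it was at 8.0 and 6.88 CPM and in Tub B at 6.72 and 6.69 CPM, so the TNF libraries were the highest, and with TNF alone its change was 0.26 ± 0.12 (edgeR adjusted p = 0.11). Both calls were lost without any 1 of the 4 libraries compared, with an edgeR adjusted p of 0.078 to 0.139 for NDUFS1 and 0.0587 to 0.154 for NDUFA9. DESeq2 called 0 nuclear genes here, against 12 with an unadjusted p below 0.05 in edgeR. A further annotated gene shares 10.6% of the exon bases of NDUFA9.

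**Figure D3:**
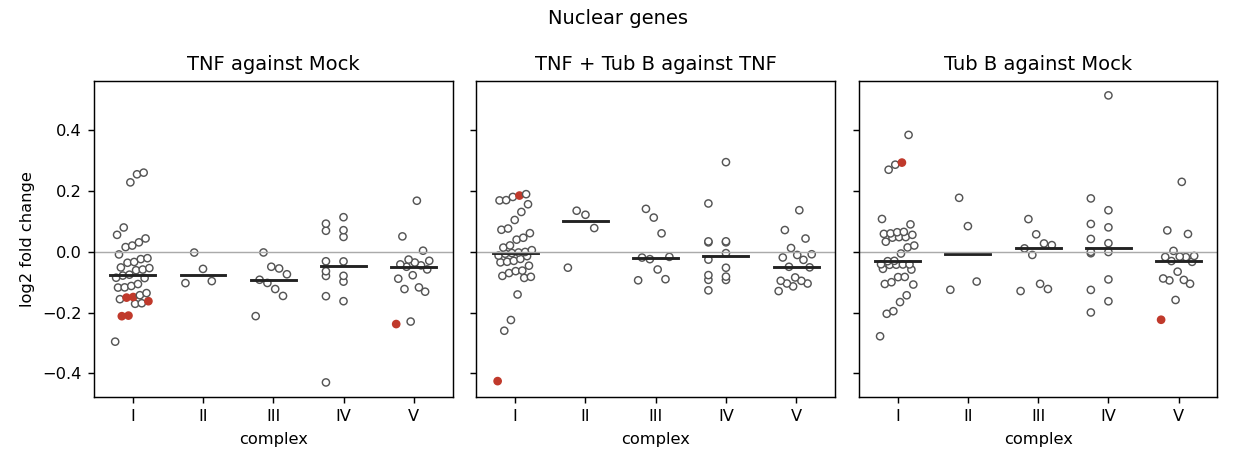
Log2 fold changes of the 81 tested nuclear genes by complex in 3 comparisons. Each circle is a gene, filled red where it passed an adjusted p of 0.05, and the bar is the median of the complex. Of the circles 6, 2 and 2 are filled, and the medians of the complexes lie between -0.09 and 0.10.

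Tub B against Mock asked what the compound did without the cytokine. In the nuclear genome 1 gene rose and 1 fell (2.47% of 81), and 0 of the 13 mtDNA genes were called, while 12.7% of all genes were called, 4.83% higher and 7.91% lower. At an unadjusted p below 0.05 the counts were 15 nuclear and 3 mtDNA genes, and DESeq2 called 1 and 0. Limma-voom called 1 mtDNA gene, MT-CYB. Medians were -0.04 for mtDNA, -0.01 for nuclear and 0.003 for all genes, and with library totals the first 2 turned to 0.02 and 0.04. This comparison uses the same Mock libraries as that of TNF.

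NDUFA5, an accessory subunit in the matrix arm of complex I, stood at 23.8 and 23.2 CPM in Mock and at 27.6 and 30.1 CPM in Tub B, and rose by 0.29 ± 0.07 (edgeR adjusted p = 0.0148). In the cells with TNF it stood at 23.7 and 22.5 CPM without Tub B and at 26.9 and 25.8 CPM with it, a change of 0.19 ± 0.08 (edgeR adjusted p = 0.103). Both pairs of groups were free of overlap, and the difference between the 2 effects was -0.10 ± 0.11 (edgeR adjusted p = 0.702). ATP5D (now ATP5F1D), a subunit of the rotor of ATP synthase, stood at 91.0 and 84.5 CPM in Mock and at 78.7 and 71.8 CPM in Tub B, and fell by 0.22 ± 0.06 (edgeR adjusted p = 0.016). The call of NDUFA5 was lost without the second Tub B library (edgeR adjusted p = 0.19) and in DESeq2 (adjusted p = 0.0952). That of ATP5D was lost without the first Mock library (edgeR adjusted p = 0.15) or the second Tub B library (edgeR adjusted p = 0.235).

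The 2 Tub B libraries differed from each other in several mtDNA genes. MT-ND3 stood at 239 and 286 CPM and MT-ATP8 at 101 and 152 CPM. Without the first Tub B library these 2 genes passed against Mock, at 0.26 for MT-ND3 (edgeR adjusted p = 0.00693) and 0.38 for MT-ATP8 (edgeR adjusted p = 0.0192). Which of the 2 libraries is nearer the group cannot be told apart with 2 libraries.

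Whether Tub B acted differently with and without TNF was tested as an interaction, the Tub B effect in stimulated cells minus that in unstimulated cells. Of all genes 4.23% were called, 1.04% higher and 3.2% lower, and 0 of the 13 mtDNA and 0 of the 81 nuclear genes. The unadjusted p was below 0.05 for 4 mtDNA and 0 nuclear genes. DESeq2 and limma-voom each called 1 mtDNA gene, MT-CO3, and 0 nuclear genes. The median interaction was 0.11 for mtDNA, with 12 of 13 positive, and 0.01 for nuclear genes, against -0.01 for all genes.

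MT-CO3 came nearest, with an interaction of 0.21 ± 0.06 (edgeR adjusted p = 0.0649) that DESeq2 (adjusted p = 0.0331) and limma-voom (adjusted p = 0.0272) placed past the threshold. Its levels were 2038 and 2049 CPM in Mock, 1944 and 2081 CPM in Tub B, 1746 and 1770 CPM in TNF and 1958 and 2041 CPM in TNF + Tub B, so the TNF libraries alone stood apart from the other 6. MT-CYB had an interaction of 0.17 ± 0.06 (edgeR adjusted p = 0.13) and MT-CO2 one of 0.14 ± 0.06 (edgeR adjusted p = 0.207). For the 81 nuclear genes the interval of the interaction lay within 1.5-fold in 71 and within 2-fold in 77.

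The 4 genes of complex II, succinate dehydrogenase, which also works in the citric acid cycle, did not pass in any comparison. SDHA, the flavin-bearing subunit, lay at 9.22 to 11.4 CPM, and SDHB, the iron-sulfur subunit, at 51.1 to 58.1 CPM. The membrane anchors SDHC and SDHD lay at 86.2 to 101 CPM and at 25.0 to 31.8 CPM. SDHC had the lowest adjusted p, 0.0778 by edgeR, for a change of 0.13 ± 0.05 between TNF and TNF + Tub B, where its levels were 87.5 and 86.2 CPM against 98.7 and 91.8 CPM. SDHA has pseudogene copies that may share its reads.

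Subunits with tissue-restricted forms were read as pairs. COX4I1, the common form of a nuclear subunit of complex IV, lay at 163 to 177 CPM, while COX4I2, a form linked to lung and low oxygen, had 6 counts in all. COX6B2 and COX8C, forms known from testis, had 19 and 8 counts in all, beside COX6B1 at 57.5 to 66.6 CPM and COX8A at 37.5 to 50.9 CPM. COX6A1 lay at 29.2 to 32.5 CPM. None of the common forms passed in any comparison.

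COX7A1, the form known from heart and muscle, was well expressed next to the common COX7A2. The count ratio of COX7A1 to COX7A2 was 0.348 and 0.323 in Mock, 0.280 and 0.277 in TNF, 0.290 and 0.287 in TNF + Tub B and 0.302 and 0.270 with Tub B alone. Both Mock libraries lay above the other 6. Neither gene passed: COX7A1 changed by -0.16 ± 0.09 (edgeR adjusted p = 0.174) with TNF and by -0.20 ± 0.09 (edgeR adjusted p = 0.161) with Tub B, and COX7A2 by 0.11 ± 0.06 (edgeR adjusted p = 0.168) with TNF.

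NDUFA4L2, a form induced by low oxygen, stood at 0.746 and 0.789 CPM in Mock, 0.694 and 0.373 in TNF, 0.578 and 0.832 in TNF + Tub B and 1.17 and 1.01 with Tub B alone. Its count ratio to NDUFA4, now counted as a complex IV subunit, was between 0.0055 and 0.0160. The 2 Tub B libraries were the highest, with a change of 0.51 ± 0.35 (edgeR adjusted p = 0.392) against Mock. The 3 genes for the same c subunit of ATP synthase, ATP5G1, ATP5G2 and ATP5G3, lay at 35.8 to 45.5, 73.8 to 84.9 and 102 to 123 CPM. They did not pass in any comparison. The nearest was ATP5G3 with TNF, at -0.12 ± 0.05 (edgeR adjusted p = 0.0602).

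Other lists cover genes that serve oxidative phosphorylation without being subunits. Of 45 tested assembly factors, which help build the complexes, 1 rose and 5 fell with TNF (13.3%, against 30.5% of all genes, median -0.13). When Tub B was added to TNF, 5 rose and 0 fell (11.1%, median 0.10). In that comparison 20.2% of all genes were called, 7.11% higher and 13.1% lower. The factors that fell with TNF were C6orf57 (now SDHAF4) by 0.53 ± 0.15, LYRM7 by 0.39 ± 0.09, NDUFAF2 by 0.31 ± 0.11, BCS1L by 0.29 ± 0.07 and FOXRED1 by 0.26 ± 0.09, with edgeR adjusted p from 0.00219 to 0.0364. The last 2 were named after their values were seen. These calls held in 6, 8, 5, 7 and 5 of the 8 fits that left out a library. The 1 factor that rose with TNF, COX19, stood at 15.8 and 16.4 CPM in Mock and at 20.1 and 19.5 in TNF, a rise of 0.31. LYRM7 and BCS1L both serve the iron-sulfur protein of complex III. LYRM7 stood at 25.6 and 23.2 CPM in Mock, 19.7 and 17.6 in TNF, 22.7 and 24.2 in TNF + Tub B and 26.5 and 29.8 with Tub B alone. The largest rise with Tub B on TNF was that of COX15, which makes heme A for complex IV, by 0.36 ± 0.09 (edgeR adjusted p = 0.00667), and it also rose by 0.29 ± 0.08 with Tub B alone (edgeR adjusted p = 0.0285). These 2 calls held in 6 and 5 of the 8 fits.

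Among 17 genes of mtDNA replication and transcription, 0 were called with TNF, 3 with an unadjusted p below 0.05. When Tub B was added 2 rose and 0 fell (11.8%, median 0.11). Of all genes 7.11% were called higher there and 20.2% either way. TFAM, which packages mtDNA and starts its transcription, stood at 20.1 and 18.0 CPM in Mock, 17.1 and 18.2 in TNF, 25.1 and 22.8 in TNF + Tub B and 18.3 and 19.9 with Tub B alone. The 2 TNF + Tub B libraries were the highest of the 8. TFAM rose by 0.45 ± 0.09 against TNF (edgeR adjusted p = 0.00123), and its interaction of 0.46 ± 0.13 passed narrowly (edgeR adjusted p = 0.0479), with 0.23 in DESeq2. Leaving out a library kept the call against TNF in 8 of 8 fits and that of the interaction in 1. MGME1, a nuclease that trims mtDNA during replication, rose by 0.30 ± 0.08 (edgeR adjusted p = 0.0139).

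Of 22 genes of mitochondrial RNA processing and decay, 2 rose and 4 fell with TNF (27.3%, near the 30.5% of all genes, median -0.03). PNPT1, the polynucleotide phosphorylase that degrades mitochondrial RNA, had the largest change of the list. It stood at 32.9 and 32.8 CPM in Mock, 101 and 123 in TNF, 35.5 and 49.1 in TNF + Tub B and 27.3 and 31.9 with Tub B alone. It rose by 1.76 ± 0.11 with TNF (edgeR adjusted p = 4.9e-10) and fell by 1.41 ± 0.11 when Tub B was added (edgeR adjusted p = 3.32e-08). Its interaction was -1.25 ± 0.17 (edgeR adjusted p = 0.00015). The other gene that rose with TNF, NSUN4, stood at 19.6 and 18.7 CPM in Mock and at 23.5 and 22.1 in TNF. HSD17B10, at 36.0 and 34.1 CPM in Mock and at 30.7 and 26.7 in TNF, was among the genes that fell. LRPPRC, which stabilises mitochondrial messages, stood at 146 and 141 CPM in Mock and 127 and 129 in TNF and fell by 0.17 ± 0.05 (edgeR adjusted p = 0.012). It was named after its values were seen, and its call held in 5 of 8 fits that left out a library. REXO2, which clears short RNA fragments, fell by 0.27 ± 0.05 (edgeR adjusted p = 0.000835), and its call and those of PNPT1 held in all 8.

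A list of 4 interferon-linked genes held PNPT1 with RSAD2, IFI6 and IFI27. All 4 were called higher with TNF, against 17.2% of all genes, and all 4 lower when Tub B was added, against 13.1%. The list was chosen with earlier results of these data known, so these counts are not an independent result. PNPT1 is counted in the list above too. IFI6, a mitochondrial protein, stood at 109 and 172 CPM in Mock, 781 and 915 in TNF, 156 and 187 in TNF + Tub B and 83.3 and 83.7 with Tub B alone. IFI6 fell by 2.30 ± 0.13 when Tub B was added to TNF (edgeR adjusted p = 1.09e-09) and by 0.74 ± 0.14 with Tub B alone (edgeR adjusted p = 0.00197). Its interaction was -1.57 ± 0.19 (edgeR adjusted p = 7.01e-05). The 2 Mock libraries differed for these genes, with RSAD2 at 1.95 and 3.72 CPM. Any part of PNPT1 in the mtDNA values was not tested.

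**Figure D4:**
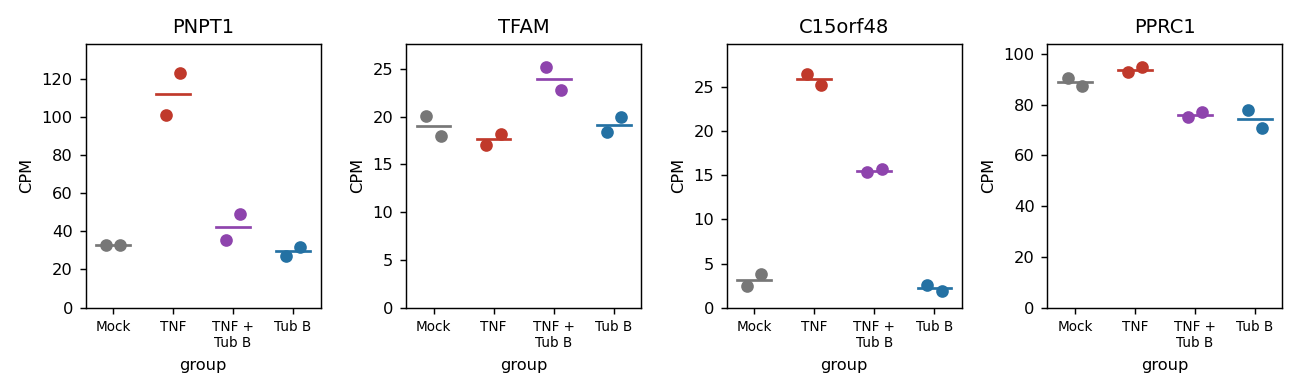
Levels in CPM, by group, of PNPT1 (decay of mitochondrial RNA), TFAM (mtDNA transcription), C15orf48 (a complex IV subunit variant) and PPRC1 (a coactivator of nuclear mitochondrial genes). Each point is a library, and the line is the mean of 2. PNPT1 is highest in TNF, at 101 and 123, TFAM is highest in TNF + Tub B, at 25.1 and 22.8, and PPRC1 is lower in both groups with Tub B.

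A list of transcription factors and coactivators covers the regulators of the nuclear genes. Of 11 tested regulators, 1 rose and 1 fell with TNF, 1 rose and 2 fell when Tub B was added, and 1 rose and 2 fell with Tub B alone. These are 18.2%, 27.3% and 27.3%, against 30.5%, 20.2% and 12.7% of all genes. PPRC1, a coactivator related to PGC-1, stood at 90.5 and 87.5 CPM in Mock, 92.7 and 95 in TNF, 75.1 and 77.1 in TNF + Tub B and 78.0 and 70.6 with Tub B alone. All 4 libraries with Tub B lay below all 4 without it. PPRC1 fell by 0.30 ± 0.05 on top of TNF (edgeR adjusted p = 0.000544) and by 0.26 ± 0.05 alone (edgeR adjusted p = 0.00345). HIF1A, the oxygen-regulated factor, fell by 0.38 ± 0.06 (edgeR adjusted p = 0.000131) and by 0.19 ± 0.06 (edgeR adjusted p = 0.0397) in the same comparisons. The calls of PPRC1 held in 8 and 7 of the fits that left out a library, and those of HIF1A in 8 and 1. Each of the 3 subunit genes of GABP was called in at least 1 comparison. GABPA rose by 0.32 ± 0.08 with Tub B alone (edgeR adjusted p = 0.00949). With TNF, GABPB1 rose by 0.33 ± 0.08 (edgeR adjusted p = 0.00574) and GABPB2 fell by 0.42 ± 0.08 (edgeR adjusted p = 0.000459). GABPB2 then rose by 0.30 ± 0.08 when Tub B was added to TNF (edgeR adjusted p = 0.0169). In that order these calls held in 5, 7, 8 and 4 of the 8 fits, and DESeq2 lost those of GABPA, GABPB1 and the rise of GABPB2 (adjusted p = 0.0623, 0.102 and 0.145).

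A mixed list of 13 inner-membrane proteins and related ones, such as transporters, uncouplers and SOD2 of the matrix, had 2 genes that rose and 1 that fell with TNF (23.1%, against 30.5% of all genes). The gene that fell was SLC25A6, an exchanger of ADP and ATP, by 0.15 ± 0.05 (edgeR adjusted p = 0.0239), with a call that held in 6 of the 8 fits that left out a library. C15orf48, a TNF-inducible relative of NDUFA4 that can take its place in complex IV, stood at 2.45 and 3.78 CPM in Mock, 26.4 and 25.3 in TNF, 15.3 and 15.7 in TNF + Tub B and 2.57 and 1.93 with Tub B alone. It rose by 3.12 ± 0.14 with TNF (edgeR adjusted p = 4.3e-12) and fell by 0.74 ± 0.11 when Tub B was added (edgeR adjusted p = 7.45e-05), while NDUFA4 stayed between 67.7 and 79.6 CPM in all 8 libraries. The superoxide dismutase SOD2 of the matrix stood at 105 and 110 CPM in Mock against 2340 and 2339 in TNF and 2306 and 2352 in TNF + Tub B. It rose by 4.44 ± 0.05 with TNF (edgeR adjusted p = 1.69e-20) and was not called when Tub B was added.

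With Tub B alone, 3 of the 13 genes of this mixed list were called (23.1%, against 12.7% of all genes). UCP2, an uncoupling protein, stood at 11.4 and 14.2 CPM in Mock and at 8.12 and 8.92 CPM in Tub B, and fell by 0.57 ± 0.13 (edgeR adjusted p = 0.00618). SLC25A4, a further ADP and ATP exchanger, fell by 0.33 ± 0.08 (edgeR adjusted p = 0.0102), and SOD2 rose by 0.16 ± 0.04 (edgeR adjusted p = 0.025). Cytochrome c, CYCS, belongs not to that list but to the 17 electron carriers and enzymes of ubiquinone synthesis. It was the 1 of them called with Tub B alone (5.88%, against 7.91% of all genes lower). It stood at 121 and 111 CPM in Mock and at 96.3 and 101 CPM in Tub B, and fell by 0.24 ± 0.05 (edgeR adjusted p = 0.00676). The calls held in 7 of 8 fits that left out a library for UCP2, 6 for SLC25A4 and CYCS and 5 for SOD2.

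Among 17 electron carriers and enzymes of ubiquinone synthesis, 1 rose and 1 fell with TNF and 2 rose when Tub B was added. Both are 11.8%, against 30.5% and 20.2% of all genes. When Tub B was added, 7.11% of all genes were called higher. The gene that rose with TNF was COQ10B. ETFDH, which passes electrons from fat oxidation to ubiquinone, stood at 18.8 and 18.6 CPM in Mock, 15.9 and 16.5 in TNF, 21.5 and 20.8 in TNF + Tub B and 22.3 and 21.7 with Tub B alone, and rose by 0.39 ± 0.08 on top of TNF (edgeR adjusted p = 0.00201). It was also the gene that fell with TNF, by 0.21 ± 0.08 (edgeR adjusted p = 0.0478). The call of its rise held in 8 of 8 fits that left out a library and that of its fall in 0, and DESeq2 gave an adjusted p of 0.282 for the fall. Of 18 genes of the citric acid cycle and pyruvate dehydrogenase, 1 rose and 2 fell with TNF (16.7%, against 30.5% of all genes). When Tub B was added 1 fell (5.56%, against 13.1% of all genes lower and 20.2% called either way). With Tub B alone 4 fell (22.2%, against 7.91% of all genes lower, median -0.05): IDH3G, OGDH, CS and MDH2. Those 4 calls held in 6, 3, 3 and 0 of the 8 fits that left out a library.

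Ribosomal protein genes, which also make up large families of even expression, were listed for scale. Of 84 cytosolic ribosomal protein genes 48 fell and 2 rose with TNF (59.5%, against 30.5% of all genes, median -0.15), and of 76 mitochondrial ones 12 fell and 3 rose (19.7%, median -0.09). With Tub B added to TNF the counts were 1 lower and 6 higher for the cytosolic genes (8.33%). For the mitochondrial ones they were 1 lower and 5 higher (7.89%). Of all genes 20.2% were called in that comparison, 7.11% higher and 13.1% lower. The cytosolic median with TNF was thus lower than that of the 13 mtDNA genes, at -0.12, and of the 81 nuclear ones, at -0.06. Cytosolic ribosomal protein genes have many near copies, so single values of them are uncertain.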

How the data were processed

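The authors deposited raw gene counts in 1 table, with a column for each of 8 poly(A) RNA libraries. Per the labels' protocols, the libraries were made with a non-directional kit, so strand is not kept. The submitters' processing notes name the aligner STAR 2.7.0 and the read counter featureCounts (version not given in the sources used here). Both hg19 and mm10 are named as builds, per the submitters' processing notes, with no role. Gene lengths and overlaps came from GENCODE v29, which matched all 98 genes to 1 protein-coding gene each, but is of another build (GRCh38) and gave no coordinates. Promoters are from RefSeq.

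Columns were matched to samples by the descriptions in the labels, with 0 unassigned. The software was R 4.3.3 with DESeq2 1.42.0, limma 3.58.1 and edgeR 4.0.16. The filter filterByExpr kept 16647 genes. All 8 libraries entered 1 quasi-likelihood model in edgeR with a coefficient for each group (4 residual and 13.1 prior degrees of freedom, biological coefficient of variation 4.00%), and p-values were adjusted by Benjamini-Hochberg over all genes tested. The threshold was 0.05. CPM were scaled by TMM, and a prior count of 2 was used for log2 CPM. A floor of 3 counts was 0.0992 to 0.208 CPM, which covers counting error only. Intervals of changes are 95%. Replicate libraries differed by more than sampling noise in every group (chi-square per degree of freedom 2.20 to 5.19 over all genes tested). For the 81 nuclear genes the value was 2.00 to 2.25. For the 13 mtDNA genes, with far more counts each, it was 45.7 in Mock, 12.2 in TNF, 16.7 in TNF + Tub B and 81.0 with Tub B alone. The steps were tested on simulated counts.

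The genes and lists were chosen with earlier results of these data known. Named with full values were every mtDNA gene and, per comparison and direction, up to 5 called nuclear genes with the largest change, at least 5 CPM and no overlap between groups. Complex II genes, genes with tissue-restricted forms and up to 4 called genes of each further list were also named, with exceptions stated where they occur. Alternatives were 3 other scalings, leaving mitochondrial rows out of the scaling, 2 other filters, DESeq2, limma-voom, fits restricted to the groups compared, a replicate block, pseudogene counts added to their mtDNA genes, a threshold of 0.01, a prior count of 0.5 and fits without each library in turn. A further marker listed in the design is not reported here.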

Additional observations from a re-analysis of the deposited data

Results flagged for a closer look

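The effect of Tub B passed the test for a difference with and without TNF in 4 listed genes and in 0 subunit genes. They were 1 of 45 assembly factors (2.22%), 1 of 17 genes of mtDNA replication and transcription (5.88%) and 2 of 4 interferon-linked genes. Of the last 2, PNPT1 was also the 1 of 22 genes of mitochondrial RNA processing and decay (4.55%). The shares of the 3 larger lists lay near the 4.23% of all genes called either way, 1.04% higher and 3.2% lower. The log2 difference of the 2 effects was -1.57 for IFI6 and -1.25 for PNPT1, where Tub B lowered the level more in cells with TNF. For IFI6 the effects were -2.30 ± 0.13 with TNF and -0.74 ± 0.14 without it, and the latter passed too (edgeR adjusted p = 0.00197). For PNPT1 the effects were -1.41 with TNF and -0.15 ± 0.12 without it. Both differences passed in all 8 fits that left out a library.

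It was 0.46 for TFAM, with Tub B effects of 0.45 ± 0.09 with TNF and -0.0041 ± 0.09 without it, and 0.46 for FOXRED1, a complex I assembly factor, with effects of 0.26 ± 0.09 and -0.20 ± 0.09. FOXRED1 stood at 22.2 and 20.4 CPM in Mock, 18.2 and 17.3 in TNF, 22.6 and 20.0 in TNF + Tub B and 19.6 and 17.8 with Tub B alone. These 2 differences were near the threshold (edgeR adjusted p = 0.0479 and 0.0492), were lost in DESeq2 (0.23 and 0.219), and passed in 1 and 2 of 8 fits that left out a library.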

How the results depend on the processing

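Counts of called genes depended on scaling and test. For TNF against Mock, nuclear calls went from 6 to 28 with library totals, 26 with upper-quartile scaling and 2 with DESeq2 or at 0.01, and mtDNA calls from 6 to 10, 10 and, at 0.01, 3. For TNF + Tub B against TNF, nuclear calls went from 2 to 15 with library totals (15 higher), 8 with upper-quartile scaling (7 higher), 4 with a filter of 1 CPM, 8 with only the groups compared, and 0 with DESeq2 or at 0.01. The mtDNA calls went from 4 to 11, 7, 2 with DESeq2 and 1 at 0.01. For Tub B against Mock, nuclear calls went from 2 to 1 with DESeq2 and 0 at 0.01, and mtDNA calls from 0 to 1 with library totals, 1 with limma-voom and 2 with no filter. For the interaction, mtDNA calls went from 0 to 2 with library totals, 1 with upper-quartile scaling, DESeq2 or limma-voom, and 3 with no filter. The log2 ratio of mtDNA to nuclear counts for Tub B against Mock went from -0.0063 to -0.0705 with medians in place of sums. The cause of these shifts was not tested.

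Leaving out single libraries gave 1 to 9, 0 to 5, 0 to 4 and 0 to 0 nuclear calls for the TNF effect, for Tub B on top of TNF, for Tub B alone and for the interaction, and 3 to 6, 0 to 6, 0 to 2 and 0 to 2 mtDNA calls. The mtDNA minus nuclear median ranged from -0.0865 to 0.0124, 0.0282 to 0.132, -0.0639 to 0.0193 and 0.0514 to 0.153. The log2 ratio ranged from -0.123 to -0.0191, 0.0621 to 0.131, -0.0581 to 0.0455 and 0.0510 to 0.155. Such a fit leaves 1 library in its group, assumed to vary like the others.

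Groups share replicate numbers, but the labels do not say what a number marks, and deviations of same-numbered libraries correlated between -0.048 and 0.047 over all genes, and between -0.156 and 0.414 (Mock with TNF + Tub B) over the oxidative phosphorylation genes. With a replicate block, nuclear calls were 9 for TNF against Mock, 7 for TNF + Tub B against TNF and 5 for Tub B against Mock, and mtDNA calls for the interaction were 1. With 2 libraries per group, the precision of single genes is limited by the spread between libraries more than by depth for the mtDNA genes, which hold 20006 to 1430385 counts each.

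Over 185 pairs of a named gene and a comparison, each refitted under the alternatives other than leaving out a library, 1962 refits kept the direction and the side of the threshold. Of the others 57 passed newly, 124 no longer passed and 42 changed sign. In the fits that left out a library the counts were 1207, 15, 185 and 73. The 115 refits that changed sign concerned 51 pairs, and 0 of them were called in the reported fit or in the refit. The log2 fold changes that changed sign are as follows. With library totals, TNF against Mock gave COX4I1 -0.0055 and COX6A1 -0.0040. With library totals, TNF + Tub B against TNF gave MT-ND5 0.079, MT-ND6 0.084, COX4I1 0.11, COX6A1 0.037, COX6B1 0.027, COX7A1 0.042, COX8A 0.027, ATP5G3 0.035 and SDHB 0.067. With library totals, Tub B against Mock gave MT-CO3 0.036, MT-ND2 0.014, MT-ND4 0.019, MT-ND5 0.022, COX4I1 0.052, NDUFA4 0.055 and ATP5G2 0.025. With library totals, the interaction gave MT-ND5 0.057, COX8A 0.062 and SDHD 0.0074. With upper-quartile scaling, TNF + Tub B against TNF gave MT-ND5 0.0028, MT-ND6 0.0082 and COX4I1 0.039. With upper-quartile scaling, Tub B against Mock gave COX4I1 0.016 and NDUFA4 0.020. With upper-quartile scaling, the interaction gave MT-ND5 0.018 and COX8A 0.022. With DESeq2 size factors, Tub B against Mock gave MT-ATP6 -0.0047 and MT-CO1 -0.0022. With DESeq2 size factors, the interaction gave MT-ND5 0.0032 and COX8A 0.0060. In the DESeq2 test, Tub B against Mock gave MT-ATP6 -0.0037 and MT-CO1 -0.0013. In the DESeq2 test, the interaction gave MT-ND5 0.0027. With no filter, TNF + Tub B against TNF gave ATP5G2 -0.0051. With no filter, Tub B against Mock gave MT-ATP6 -0.0098 and MT-CO1 -0.0069. With no filter, the interaction gave COX4I1 -0.0035 and ATP5G3 -0.00049. With only the groups compared, TNF + Tub B against TNF gave COX4I1 0.0084. With pseudogene counts added, Tub B against Mock gave MT-ATP6 -0.0074.

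Where a left-out library changed the sign for TNF against Mock, values ran from -0.099 to 0.024 for COX6B1, -0.0089 to 0.22 for COX8A, -0.14 to 0.11 for ATP5G1, -0.11 to 0.15 for SDHA and -0.11 to 0.0050 for SDHD. Where a left-out library changed the sign for TNF + Tub B against TNF, values ran from -0.010 to 0.058 for MT-ND1, -0.090 to 0.00052 for MT-ND6, -0.033 to 0.021 for COX4I1, -0.34 to 0.092 for COX8A, -0.029 to 0.10 for NDUFA4 and -0.038 to 0.071 for ATP5G2. They ran from -0.026 to 0.15 for SDHA and -0.071 to 0.26 for SDHD. Where a left-out library changed the sign for Tub B against Mock, values ran from -0.025 to 0.030 for MT-ATP6, -0.21 to 0.38 for MT-ATP8, -0.061 to 0.073 for MT-CO1, -0.073 to 0.026 for MT-CO3, -0.11 to 0.017 for MT-ND2 and -0.10 to 0.018 for MT-ND4. They ran from -0.030 to 0.018 for COX4I1, -0.027 to 0.077 for COX6A1, -0.015 to 0.097 for COX7A2, -0.19 to 0.038 for COX8A, -0.066 to 0.061 for NDUFA4 and -0.075 to 0.0093 for ATP5G2. They ran from -0.23 to 0.026 for SDHA and -0.019 to 0.11 for NDUFS1. Where a left-out library changed the sign for the interaction, values ran from -0.061 to 0.20 for MT-ND3, -0.0096 to 0.19 for MT-ND4L, -0.046 to 0.020 for MT-ND5, -0.024 to 0.067 for MT-ND6, -0.032 to 0.027 for COX4I1 and -0.036 to 0.10 for COX6B1. They ran from -0.25 to 0.18 for COX8A, -0.040 to 0.10 for NDUFA4, -0.51 to 0.38 for NDUFA4L2, -0.11 to 0.14 for ATP5G1, -0.0063 to 0.10 for ATP5G2 and -0.037 to 0.042 for ATP5G3. They ran from -0.013 to 0.098 for SDHB, -0.0099 to 0.091 for SDHC and -0.25 to 0.085 for SDHD.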
